A study of Mus musculus with 15 samples.

Results

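The Z-specific part of the response to human alpha1-antitrypsin was measured as a difference of 2 differences in mouse liver: the on-off change of the Z line minus the on-off change of the M line. A positive value means that a gene's signal changed upward more, or downward less, in the Z line than in the M line, and a negative value means the opposite. The members were the arrays of the 4 groups Z-on, Z-off, M-on and M-off, which the labels call Z4, Z1, M4 and M1, with 3 arrays per group and 12 of the 15 arrays in all.

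Z-on mice carried the mutant Z form of human alpha1-antitrypsin, inducible in hepatocytes only, and drank no doxycycline, so that the transgene was expressed by design. Z-off mice carried the same transgene and were given doxycycline, which shuts it off, from conception on in water at 40 µg per mL. M-on and M-off mice carried the wild type M form under the same arrangement, without and with doxycycline. The other 3 arrays were of littermates with no transgene and no doxycycline, which entered the fit but not the contrast. All mice were labelled as adult males aged 3 months, with 3 biological replicates per group. In each line the on-off change therefore joins transgene expression with the absence of doxycycline, and the difference between lines subtracts what both lines share. The comparison asks which on-off changes differ between the line with the misfolding Z form and the line with the M form. Such a difference can lie in a change of the Z line, of the M line or of both.

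Alpha1-antitrypsin is a protease inhibitor that hepatocytes make in the endoplasmic reticulum (ER) and secrete into blood. The Z variant folds poorly and polymerizes in the ER, whereas the M variant is secreted. Cells meet misfolded ER protein with chaperones, with ER-associated degradation and with autophagy. The ER membrane also houses many enzymes of cholesterol synthesis and the sensors that set their transcription, and heat shock proteins serve protein folding in the cytosol.

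The arrays of 1 group departed from their labels before any comparison. Xist, the RNA of the inactive X chromosome and a female marker, had signals of 1149.2, 226 and 32.6 on the arrays labelled M-on 1, 2 and 3, and at most 74.3 on any other array. Eif2s3y, a Y-linked gene, had 0.4, 1.3 and 42.1 on the same 3 arrays and at least 105.3 on every other array. The arrays labelled M-on 1 and M-on 2 thus went against the label male, so the main results below are also given for each M-on array, or for the fit that keeps only M-on array 3, and a value with no such addition rests on all 3. In that fit the lone array was taken to vary like the arrays of the other groups. A fit that keeps only 1 M-on array holds no measure of spread among M-on mice, so a smaller adjusted p there is not stronger evidence. The kept array also helped to choose the called genes, so adjusted p-values and calls of such fits are no separate evidence. Hepatocyte markers were present in each group, with summed signals between 73464 and 98529 over 16 genes in the 4 transgenic groups. Littermate arrays were higher, at 116550 to 143199. Array controls differed between the on and off groups of both lines. The median signal of an array averaged 49.9 ± 2.38 in Z-on against 31.9 ± 0.1 in Z-off arrays, and 48.5 ± 5.70 in M-on against 30.5 ± 0.52 in M-off arrays, with 43.4 ± 1.32 in littermate arrays (SD, n = 3 each). The added polyadenylated control RNAs had mean medians of 2.1 in Z-on against 47.3 in Z-off arrays, and 4.2 in M-on against 52.1 in M-off arrays. Littermate arrays, of mice that also drank no doxycycline, had 35.6, nearer to the off groups. Their part in the on-off changes was not tested.

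Genes whose on-off change differed between the lines were few. At an adjusted p under 0.05 (limma, Benjamini-Hochberg over all genes), 76 of 12393 genes were called, which is 0.613% of the genes tested. The change was higher in the Z line for 38 genes (0.307%) and lower for 38 (0.307%). Without adjustment, 1887 genes had p under 0.05, of which 982 (7.92%) were higher and 905 (7.3%) lower. The median difference over all genes was -0.04 on the log2(signal + 16) scale, beside median on-off changes of 0.25 in the Z line and 0.29 in the M line. The constant 16 damps changes of dim genes, so that log2 values for such genes understate the ratio of their signals. Of the 76 genes, 70 differed by more than 1 log2 unit, and the smallest difference was 0.80 in size.

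**Figure D1:**
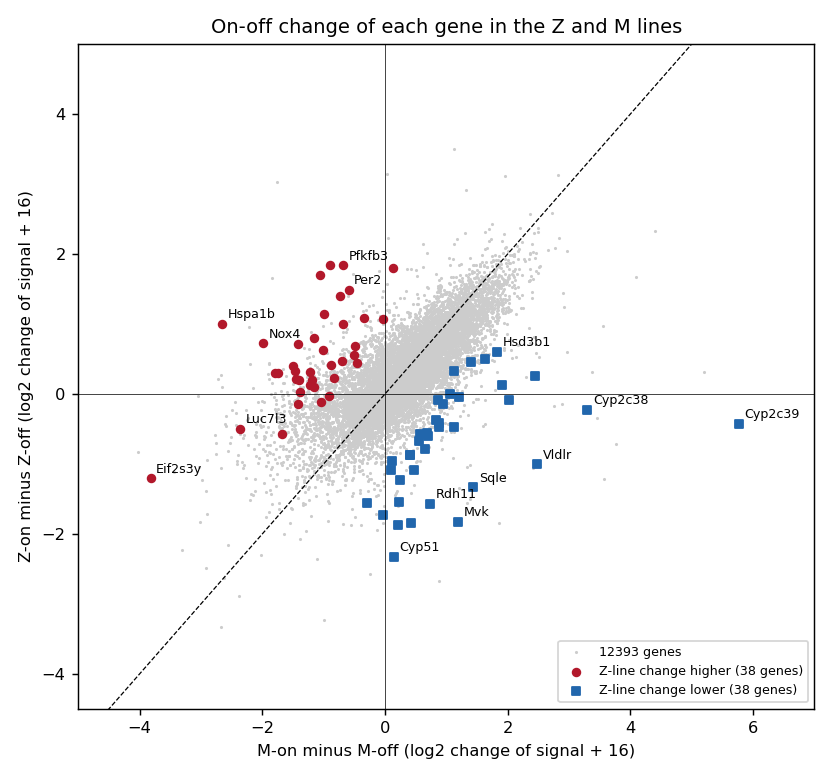
Each of the 12393 genes is plotted by its on-off change in the M line (horizontal axis, log2) and in the Z line (vertical axis, log2), with the dashed line where both are equal. The 38 genes called higher lie above the dashed line and the 38 called lower lie below it, with Cyp2c39 at 5.77 in the M line and -0.42 in the Z line.

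The on-off changes behind the 76 calls fell into several kinds. Among the 38 genes with a higher difference, 10 rose in the Z line and fell in the M line, 6 rose in the Z line with no call in the M line, 19 fell in the M line with no call in the Z line, and 3 fell in both lines, more so in the M line. Among the 38 with a lower difference, 11 fell in the Z line and rose in the M line, 11 fell in the Z line with no call in the M line, 12 rose in the M line with no call in the Z line, and 4 rose in both lines, more so in the M line. Over all genes the on-off change was called for 39.0% in the Z line (31.6% higher, 7.46% lower) and 50.3% in the M line (37.9% higher, 12.4% lower).

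Most of these genes also differed between the groups with the transgene on. Z-on minus M-on was called in the same direction for 25 of the 38 higher genes and 27 of the 38 lower genes, against 3.66% and 1.5% of all genes (5.16% in all). Z-off minus M-off was called for 5 of the 76, against 0.137% of all genes (0.0888% higher and 0.0484% lower). These were Btg1, Cirbp, Hsd17b6, Mmp24 and Vldlr, each higher in Z-off than in M-off, and none of them was called between Z-on and M-on. Signals of the 3 Z-on and 3 M-on arrays did not overlap for 65 of the 76 genes (19.3% of all genes), and those of Z-off and M-off did not overlap for 54 (19.4% of all genes). All 4 groups enter the difference that chose the genes, so these counts describe the 76 genes and are no separate evidence.

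The difference was recomputed with each M-on array on its own. All 76 genes kept their sign with each of the 3 arrays, beside 55.5% of all genes, which is largely fixed by their choice on the mean of the same arrays. M-on array 1 gave the value closest to 0 for 39 of the 76 genes, array 2 for 11 and array 3 for 26. With M-on arrays 1 and 2 left out, 64 of the 76 genes were still called, among 665 higher (5.37%) and 146 lower (1.18%) over all genes. With M-on arrays 2 and 3 left out, 17 of the 76 were still called, among 18 higher (0.145%) and 32 lower (0.258%).

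**Figure D2:**
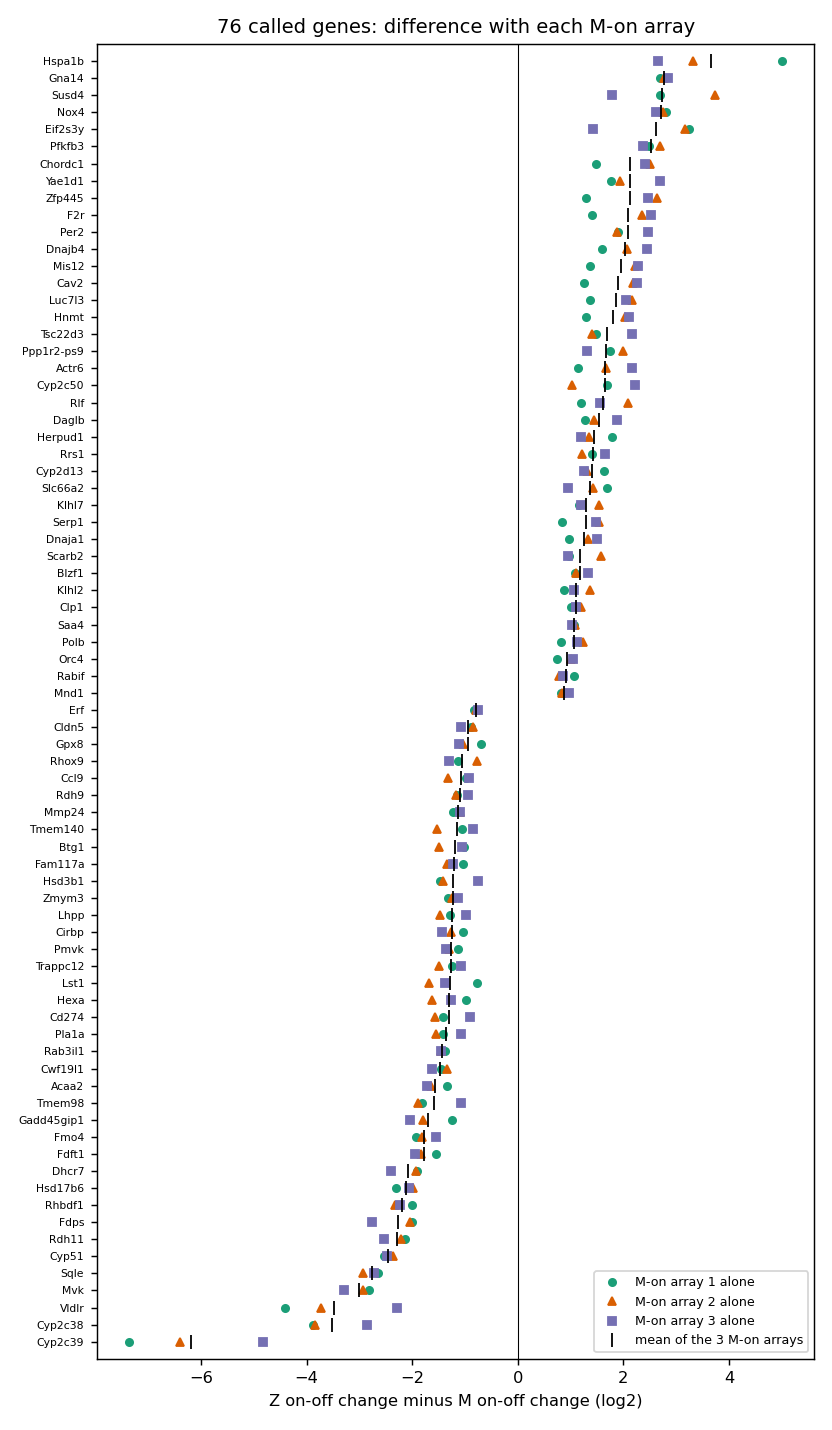
For each of the 76 called genes, the on-off change of the Z line minus that of the M line (log2) is shown with M-on array 1, 2 or 3 alone and with their mean (black tick). All points of a gene lie on the same side of 0, and the spread is widest for Hspa1b, at 5.0, 3.31 and 2.66, and Cyp2c39, at -7.36, -6.40 and -4.82.

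The number of calls turned on single arrays. Leaving out M-on array 1 gave 786 genes higher and 244 lower, whereas leaving out M-on array 2 gave 4 and 5. Leaving out an M-off array left between 0 and 4 genes higher and 2 to 6 lower, and leaving out a Z-on array left 5 to 8 higher and 10 to 16 lower. Without Z-off array 1 the counts were 6 and 14, without Z-off array 2 they were 0 and 3, and without Z-off array 3 they were 41 and 32. Without M-on array 3 the counts were 37 and 64. Of the 76 genes, 2 were called in all 12 fits that leave out 1 array each, Mvk and Cyp51. A further 8 were called in at least 7 of them, namely Rdh11, Luc7l3, Sqle, Klhl7, Nox4, Fdft1, Acaa2 and Fam117a. The other 66 were called in 1 to 5 of these fits.

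**Figure D3:**
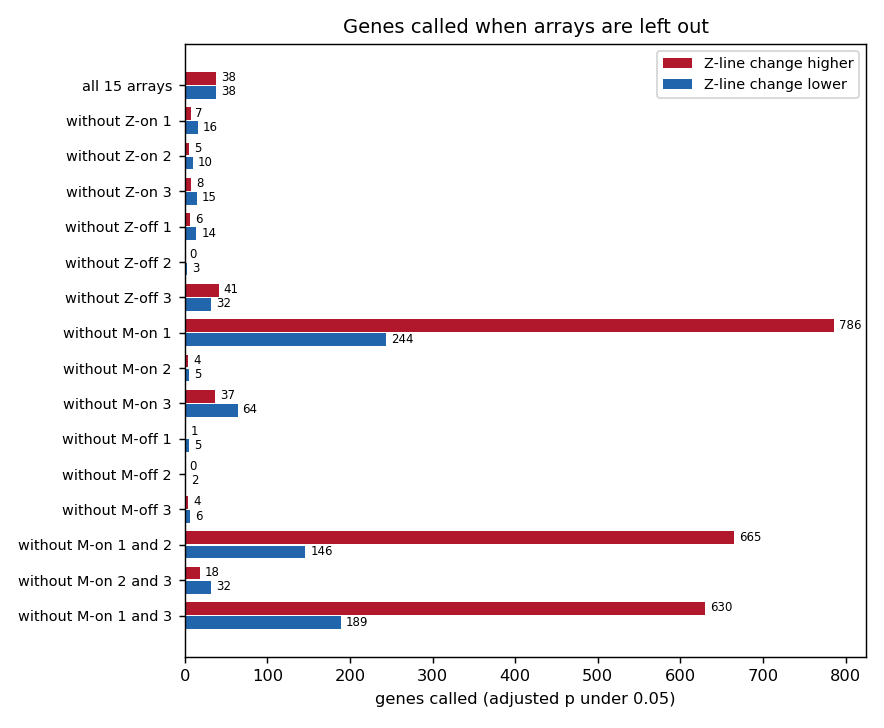
Bars give the number of genes called higher (red) and lower (blue) in the Z line than in the M line with all 15 arrays and with the named arrays left out. The counts range from 0 without Z-off array 2 or M-off array 2 to 786 without M-on array 1.

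Enzymes of cholesterol synthesis formed the largest group of members called in one direction. Of 20 measured genes of cholesterol synthesis and uptake, 7 were called lower and 0 higher, beside 0.307% of all genes lower. These 7 were Mvk, Pmvk, Fdps, Fdft1, Sqle, Cyp51 and Dhcr7. The median difference of the 20 genes was -1.37, and 18 of them were below 0. The Z on-off change was called lower for 13 of the 20 and higher for 2, beside 7.46% and 31.6% of all genes. The M on-off change was called lower for 2 and higher for 5, beside 12.4% and 37.9% of all genes. The summed signal of the list was 5897 to 9208 on Z-on arrays, 15527 to 17680 on Z-off arrays, 16216 to 21816 on M-on arrays and 15193 to 19863 on M-off arrays, so that Z-on stood alone below the other 3 groups. Littermate arrays had summed signals of 9856 to 14485, between Z-on and the rest. With M-on array 3 alone the median was -1.27, beside -0.03 over all genes. With M-on array 1 alone it was -1.51, beside -0.06 over all genes.

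Promoters of genes of this pathway are known to be read by SREBP factors together with the CCAAT-binding factor NF-Y. The windows of Mvk and Cyp51, the 2 genes called in every fit with 1 array left out, are shown for their CCAAT boxes. RefSeq promoter windows, 250 bases before to 50 after the gene start in GRCm38.p6, were matched for 4 of the 7 called enzymes, Mvk, Pmvk, Cyp51 and Dhcr7. They are printed 5′ to 3′ on the gene's strand with CCAAT, on either strand, in capitals. The Mvk window lies at chr5:114444019-114444318 on the plus strand and the Cyp51 window at chr5:4104648-4104947 on the minus strand.
Mvk: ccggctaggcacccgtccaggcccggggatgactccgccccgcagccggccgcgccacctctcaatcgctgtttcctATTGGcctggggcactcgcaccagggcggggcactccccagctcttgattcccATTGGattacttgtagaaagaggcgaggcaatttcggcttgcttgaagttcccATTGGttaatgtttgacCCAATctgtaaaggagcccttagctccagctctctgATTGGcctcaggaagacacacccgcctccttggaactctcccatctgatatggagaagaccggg
Cyp51: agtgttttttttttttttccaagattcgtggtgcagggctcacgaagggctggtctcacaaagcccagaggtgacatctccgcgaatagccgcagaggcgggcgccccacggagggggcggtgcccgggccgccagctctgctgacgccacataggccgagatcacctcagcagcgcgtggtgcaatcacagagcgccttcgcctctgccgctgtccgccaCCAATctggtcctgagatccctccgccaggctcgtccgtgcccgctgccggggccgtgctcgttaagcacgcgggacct
CCAAT was found 5 times in the Mvk window and 1 time in the Cyp51 window. Pmvk has 2 windows in the table, with 1 and 0 matches, and Dhcr7 has 3, with 0, 0 and 2. It occurs in 37.4% of 32851 windows of this length, and 5 or more matches occur in 0.271%. The motif was chosen after the values were seen. The sterol element, searched on both strands as ATCAC, any base and CCAC and likewise chosen afterwards, was found in 0.234% of windows and in none of the windows of these 4 genes, which says only that its letters are not in these windows.

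The pathway runs from mevalonate to isoprenoids, then to squalene and to sterols, and members of each stage were called. Mvk, the kinase of mevalonate, had signals of 12.8, 29.5 and 2.0 on the Z-on arrays and 78.8, 80.7 and 99.0 on the Z-off arrays, against 208.4, 226.9 and 294.6 on the M-on arrays and 110.9, 87.7 and 92.2 on the M-off arrays. Every Z-on array was below, and every M-on array above, all arrays of the off groups. The Z change was -1.83 and the M change 1.19, both called, and the difference was -3.02 (SE 0.37, adjusted p = 0.00623, limma). It was -3.29 (adjusted p = 0.00116) with M-on array 3 alone. A second Mvk probe set gave -2.50.

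Pmvk, the kinase of the next step, had signals of 61.4, 52.0 and 63.3 in Z-on and 225.7, 207.9 and 183.6 in Z-off, against 166.2, 187.6 and 195.1 in M-on and 261.7, 214.9 and 210.8 in M-off. The Z-on arrays lay apart from the others, and the M change of -0.30 was not called (adjusted p = 0.179). The difference was -1.27 (SE 0.25, adjusted p = 0.0454), and -1.36 (adjusted p = 0.0248) with M-on array 3 alone. It was called in 2 of the 12 fits that leave out 1 array.

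Fdps, which makes farnesyl diphosphate, had signals of 231.2, 382.0 and 205.8 in Z-on and 1009.6, 898.1 and 1049.9 in Z-off, against 1710.0, 1738.8 and 2869.4 in M-on and 1929.9, 1539.2 and 1163.9 in M-off. All Z-on arrays were the lowest, and the 2 M groups overlapped. The difference was -2.27 (SE 0.43, adjusted p = 0.0422) with all arrays and -2.76 (adjusted p = 0.00671) with M-on array 3 alone. Another Fdps probe set had signals of at most 2.0 on every array, too dim to read a difference on this scale.

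Fdft1, the squalene synthase, had signals of 242.0, 230.2 and 202.6 in Z-on and 660.2, 599.7 and 814.6 in Z-off, against 867.0, 1053.9 and 1142.7 in M-on and 1078.0, 775.4 and 775.4 in M-off. Again Z-on alone stood low, with a Z change of -1.55 and an M change of 0.23 that was not called (adjusted p = 0.337). The difference was -1.77 (SE 0.27, adjusted p = 0.0197), and -1.94 (adjusted p = 0.00325) with M-on array 3 alone. Of 3 other Fdft1 probe sets, 1 gave -2.04 and was called. The others were dim, with signals of at most 33.7 and 21.9 on any array, and gave 0.07 and 0.13.

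Sqle, the squalene epoxidase and a step that limits the flow into sterols, moved in opposite directions in the lines. Its signals were 61.1, 112.2 and 72.4 in Z-on and 235.9, 154.4 and 308.4 in Z-off, against 842.5, 1021.9 and 879.8 in M-on and 420.6, 272.2 and 302.4 in M-off. Every Z-on array was below the off groups and every M-on array above them. The difference was -2.77 (SE 0.42, adjusted p = 0.0199), with a Z change of -1.33 and an M change of 1.44, and it was -2.72 (adjusted p = 0.0104) with M-on array 3 alone.

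Cyp51, the lanosterol demethylase, had signals of 68.2, 120.4 and 83.9 in Z-on and 557.0, 438.0 and 542.1 in Z-off, against 601.2, 532.3 and 574.0 in M-on and 552.7, 522.8 and 472.4 in M-off. The M-on arrays stayed within or near the range of the off groups, and the M change of 0.14 was not called (adjusted p = 0.61). The difference of -2.47 (SE 0.30, adjusted p = 0.00623) was nearly the same with M-on array 1, 2 or 3, at -2.55, -2.37 and -2.48. With array 3 alone the adjusted p was 0.0022. Its 2 other probe sets gave -1.84 and -0.96, neither called.

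Dhcr7, the reductase of the last step to cholesterol, had signals of 177.8, 187.1 and 81.0 in Z-on and 625.1, 529.6 and 520.7 in Z-off, against 566.6, 576.9 and 807.9 in M-on and 644.2, 524.5 and 503.8 in M-off. The difference was -2.08 (SE 0.41, adjusted p = 0.0425), and -2.40 (adjusted p = 0.0135) with M-on array 3 alone. It was called in 1 of the 12 fits with 1 array left out.

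Of the other 13 measured genes of the list, 11 were below 0. Msmo1, a sterol methyl oxidase, had a difference of -1.84 (adjusted p = 0.103) and Nsdhl, the next enzyme, -1.73 (adjusted p = 0.0822). Hmgcs1, which makes the precursor of mevalonate, had -1.57 (adjusted p = 0.295) and Idi1, the isomerase before Fdps, -1.25 (adjusted p = 0.324). Srebf2, the gene of the pathway's main transcription factor, had 0.39 (adjusted p = 0.595), and Insig2, the gene of an ER protein that restrains it, -0.24 (adjusted p = 0.859). These 6 genes were chosen for mention after their values were seen. With M-on array 3 alone, Nsdhl, Tm7sf2 and Ebp joined the 7 called genes, at -2.19, -1.02 and -0.81.

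**Figure D4:**
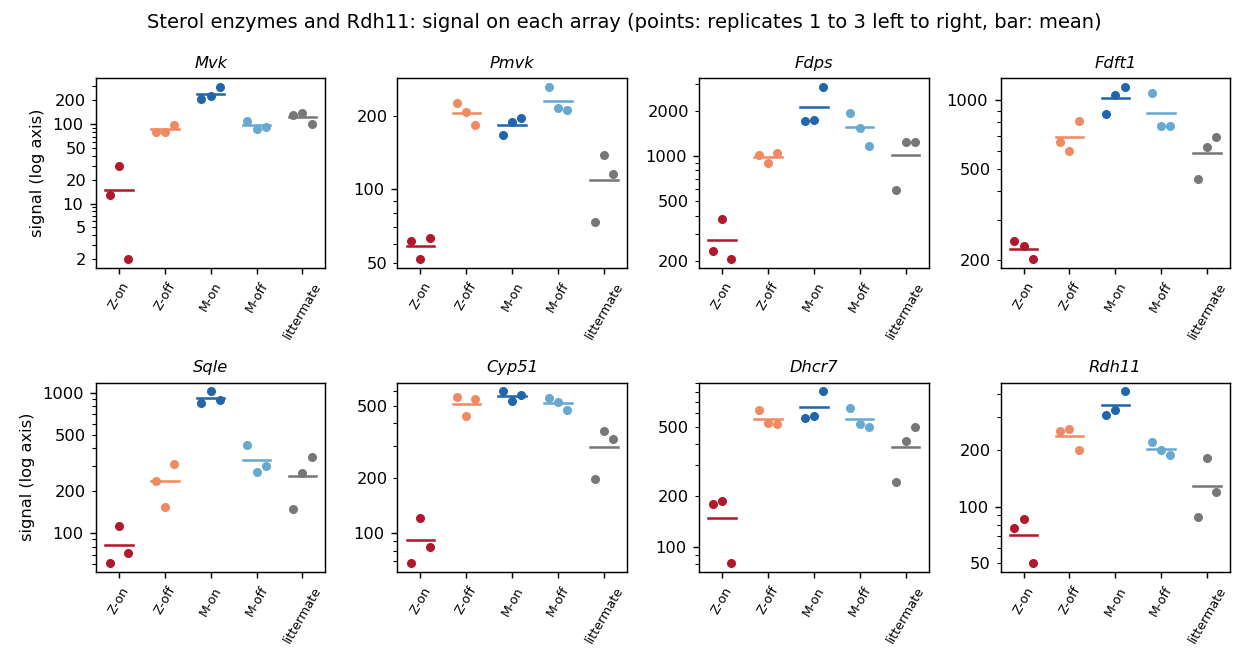
Signals of 7 called sterol enzymes and Rdh11 are plotted on log axes for every array of the Z-on, Z-off, M-on, M-off and littermate groups, with bars at the group means. In each panel the 3 Z-on points lie below all points of the other transgenic groups, and for Mvk, Sqle and Rdh11 the 3 M-on points lie above all others.

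Rdh11, a retinol dehydrogenase of the ER, is not a sterol enzyme and was not in the list. Its signals were 76.8, 85.8 and 50.1 in Z-on and 254.8, 261.1 and 200.4 in Z-off, against 310.3, 329.8 and 414.2 in M-on and 221.9, 201.4 and 189.0 in M-off. The order of the groups was the one seen for Mvk and Sqle. The difference was -2.30 (SE 0.31, adjusted p = 0.0164), and -2.54 (adjusted p = 0.00207) with M-on array 3 alone. A second probe set gave -2.48 and was called.

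Other lipid genes were called singly. Acaa2, the thiolase that ends mitochondrial fatty acid oxidation, had signals of 1490.7, 2338.2 and 1445.8 in Z-on and 3540.8, 3520.2 and 3992.6 in Z-off, against 2411.1, 2965.6 and 3111.7 in M-on and 1938.0, 2124.5 and 1989.1 in M-off. It fell in the Z line and rose in the M line, with a difference of -1.57 (SE 0.25, adjusted p = 0.0237) and -1.72 (adjusted p = 0.00441) with M-on array 3 alone. Its 2 other probe sets gave -0.01 and 0.01. It was the only gene called of 25 measured for fatty acid oxidation and ketone synthesis, whose median was -0.14, and 0 of 24 were called for fatty acid and triglyceride synthesis, with a median of 0.12. Vldlr, a receptor for lipoproteins, had signals of 54.1, 67.1 and 75.1 in Z-on and 220.6, 180.4 and 76.6 in Z-off, against 257.7, 154.6 and 46.7 in M-on and 9.7, 9.6 and 9.8 in M-off. The M-off arrays were the lowest, and M-on array 3 was the lowest of the M-on arrays. The difference was -3.48 (SE 0.63, adjusted p = 0.0417) with all arrays, and -2.29 (adjusted p = 0.0239) with M-on array 3 alone. Its 3 other probe sets were dimmer and gave -1.84, -1.09 and -0.26, none called.

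Among cytochrome P450 enzymes, Cyp2c39 had the largest difference of the 76 genes. Cyp2c39 had signals of 32.5, 259.3 and 252.0 in Z-on and 93.5, 114.5 and 589.3 in Z-off, against 2505.9, 1286.2 and 419.2 in M-on and 11.9, 1.0 and 2.5 in M-off. All M-off arrays were below every array of the Z line, whose 2 groups overlapped. M-on arrays 1 and 2 were above every other array, whereas M-on array 3 was below Z-off array 3. The difference was -6.20 (SE 1.09, adjusted p = 0.0408), made of an M change of 5.77 and a Z change of -0.42 that was not called. It was -7.36, -6.40 and -4.82 with M-on arrays 1, 2 and 3, and with array 3 alone the adjusted p was 0.0391. Cyp2c38, a close relative, had signals of 118.0, 208.7 and 259.3 in Z-on and 162.2, 218.0 and 303.2 in Z-off, against 1474.2, 1423.2 and 716.6 in M-on and 146.0, 47.2 and 145.0 in M-off. The difference was -3.53 (SE 0.60, adjusted p = 0.0393), and -2.86 (adjusted p = 0.035) with M-on array 3 alone. Sequence likeness between Cyp2c genes can let their probe sets share signal, so these 2 genes are not independent readings.

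Both Cyp2c genes belong to the list of genes that female mouse liver expresses more than male liver, and this list moved with the sex-linked signals of M-on arrays 1 and 2. Of 21 measured female-type genes, 0 were called higher and 2 lower, and all 21 were below 0, with a median of -2.08. With M-on array 3 alone the median was -0.15, and with M-on array 1 alone it was -3.06, beside -0.03 and -0.06 over all genes. The summed signal of the list was 2201 to 2714 in Z-on against 1860 to 2840 in Z-off, and 2416 to 19958 in M-on against 635 to 905 in M-off. Of 19 male-type genes, 1 was called higher and 0 lower, with a median of 0.91 with all M-on arrays and -0.15 with array 3 alone. The called gene was Susd4, which encodes a complement regulator, with signals of 177.5, 138.8 and 205.3 in Z-on and 18.5, 40.8 and 57.6 in Z-off, against 77.7, 29.2 and 159.0 in M-on and 166.4, 152.6 and 139.5 in M-off. Its difference was 2.74 (SE 0.56, adjusted p = 0.0454) and 1.79 (adjusted p = 0.0426) with M-on array 3 alone. Eif2s3y itself was called, at 2.61 (SE 0.53, adjusted p = 0.0454), with signals of 134.2, 105.3 and 147.7 in Z-on and 299.9, 245.7 and 427.6 in Z-off, against 0.4, 1.3 and 42.1 in M-on and 304.0, 304.6 and 437.6 in M-off. Its value with M-on array 3 alone was 1.42 (adjusted p = 0.0375). Xist had a difference of -1.68 (adjusted p = 0.479) with all arrays and 0.62 (adjusted p = 0.357) with M-on array 3 alone. How far the mismatched arrays account for the other calls was not tested beyond these refits.

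Among 35 measured P450 and conjugation enzymes, Cyp2c50 was the 1 called higher, beside the 2 called lower. Its signals were 5152.4, 3755.7 and 3601.5 in Z-on and 2480.0, 2430.0 and 3116.4 in Z-off, against 2437.2, 3860.1 and 1687.8 in M-on and 4878.2, 5085.0 and 5353.9 in M-off. The difference was 1.64 (SE 0.34, adjusted p = 0.0488), and 2.21 (adjusted p = 0.000756) with M-on array 3 alone. Hsd17b6, a hydroxysteroid dehydrogenase, had signals of 840.3, 951.5 and 1338.0 in Z-on and 1039.1, 1060.9 and 1177.9 in Z-off, against 1138.3, 900.0 and 956.5 in M-on and 113.0, 278.5 and 384.2 in M-off. Only M-off stood low. The difference was -2.12 (SE 0.44, adjusted p = 0.0454), and with M-on array 3 alone it was -2.06 and no longer called (adjusted p = 0.0529).

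Cytosolic heat shock genes were called in the opposite direction. Of 24 measured, 4 were called higher and 0 lower, beside 0.307% of all genes higher, and the median was 0.32. These were Hspa1b, Dnajb4, Dnaja1 and Chordc1. In the M line 15 of the 24 fell and 3 rose on the on-off change, beside 12.4% and 37.9% of all genes. In the Z line 3 fell and 3 rose, beside 7.46% and 31.6% of all genes. The summed signal of the list was 12732 to 17969 in Z-on against 13050 to 15290 in Z-off, and 12245 to 13247 in M-on against 19992 to 21642 in M-off, with M-off above every other array. Littermate arrays had 13729 to 18149. With M-on array 3 alone the median was 0.43, beside -0.03 over all genes.

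Hspa1b, an inducible member of the Hsp70 chaperones, had signals of 468.8, 367.8 and 1015.0 in Z-on and 328.0, 182.1 and 335.6 in Z-off, against 68.7, 256.5 and 412.9 in M-on and 1583.8, 1536.4 and 987.0 in M-off. Z-on and M-on overlapped, and the M-off arrays were high, with Z-on array 3 above M-off array 3. The Z change of 1.00 was not called (adjusted p = 0.154) and the M change was -2.66 (adjusted p = 0.00105). The difference was 3.66 (SE 0.76, adjusted p = 0.0454), and 2.66 (adjusted p = 0.047) with M-on array 3 alone. Its near-identical neighbour Hspa1a, which can share probe signal with it, had 3.50 (adjusted p = 0.057).

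Dnajb4, an Hsp40 partner of Hsp70, had signals of 204.2, 300.8 and 506.3 in Z-on and 270.4, 242.2 and 250.5 in Z-off, against 192.6, 133.2 and 98.8 in M-on and 521.9, 512.1 and 453.2 in M-off. All M-on arrays were below all Z-on arrays. The difference was 2.04 (SE 0.37, adjusted p = 0.0417), and 2.45 (adjusted p = 0.00388) with M-on array 3 alone. A second probe set gave 2.22 and was called. Dnaja1, another Hsp40 protein, had signals of 1344.9, 1277.5 and 1759.4 in Z-on and 1406.9, 1239.9 and 1430.5 in Z-off, against 1149.6, 893.1 and 792.0 in M-on and 2334.6, 2103.0 and 1927.3 in M-off. Its difference was 1.26 (SE 0.23, adjusted p = 0.0417), and 1.49 (adjusted p = 0.00354) with M-on array 3 alone.

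Chordc1, a co-chaperone of Hsp90, had signals of 304.2, 327.6 and 501.1 in Z-on and 278.8, 205.4 and 181.2 in Z-off, against 260.2, 119.7 and 128.8 in M-on and 427.6, 485.1 and 446.4 in M-off. The difference was 2.13 (SE 0.41, adjusted p = 0.0422), and 2.41 (adjusted p = 0.00449) with M-on array 3 alone. Its promoter window is shown because it alone among the 4 called heat shock genes held the heat shock element, searched as GAA, TTC and GAA with 2 bases of any kind between neighbours. The window lies at chr9:18292017-18292316 on the plus strand of GRCm38.p6 (RefSeq) and is printed 5′ to 3′ with the run of matches in capitals.
Chordc1: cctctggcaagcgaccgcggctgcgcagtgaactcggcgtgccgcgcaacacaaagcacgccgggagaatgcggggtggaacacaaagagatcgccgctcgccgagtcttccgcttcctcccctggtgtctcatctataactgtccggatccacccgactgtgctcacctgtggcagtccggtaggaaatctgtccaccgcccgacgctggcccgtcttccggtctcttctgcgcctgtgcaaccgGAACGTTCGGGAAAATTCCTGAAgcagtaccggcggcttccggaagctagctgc
The element was searched on both strands and matched 3 times, with the matches overlapping each other. It occurs in 0.603% of 32851 windows of this length.

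Few ER genes were called with all arrays. At an unadjusted p under 0.05, the lists of chaperones, ER-associated degradation and translocation held a larger share of higher genes than all genes did. These shares rest on all 3 M-on arrays, with list medians of 0.33, 0.27 and 0.27. With M-on array 3 alone the medians were 0.24, 0.03 and 0.15, beside -0.03 over all genes. With M-on array 1 alone they were 0.28, 0.28 and 0.34, beside -0.06 over all genes. None of 26 measured ER chaperones and folding enzymes was called in limma, and the median was 0.33, with 6 genes higher and 1 lower at an unadjusted p under 0.05 (7.92% and 7.3% of all genes). On-off changes were called lower for 9 and higher for 2 in the Z line, beside 7.46% and 31.6% of all genes. In the M line they were called lower for 14 and higher for 0, beside 12.4% and 37.9% of all genes. Hspa5, the main Hsp70 chaperone of the ER, had signals of 2371.1, 2609.2 and 4219.8 in Z-on and 4635.9, 3836.5 and 3351.3 in Z-off, against 2594.6, 2134.0 and 2886.3 in M-on and 5666.5, 6170.6 and 6119.5 in M-off. Its difference was 0.85 (adjusted p = 0.341). Dnajb9, an ER co-chaperone, had signals of 1235.3, 1293.9 and 1990.6 in Z-on and 1364.9, 655.4 and 922.7 in Z-off, against 978.0, 658.1 and 857.4 in M-on and 1774.9, 2050.1 and 2038.6 in M-off. All Z-on arrays were above all M-on arrays, and M-off was high. Its difference was 1.87 (SE 0.41) and narrowly missed the threshold (adjusted p = 0.057). Xbp1, a transcription factor of the unfolded protein response, had a difference of -0.16 (adjusted p = 0.814), and Ddit3, which encodes the stress factor CHOP, had 0.86 (adjusted p = 0.125). Neither was called with M-on array 3 alone, at -0.40 and 0.84.

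Herpud1, a membrane protein of ER-associated degradation, was called. It was the 1 called among 21 genes of that process, beside 0.307% of all genes higher, and the list median was 0.27. At an unadjusted p under 0.05 (limma), 6 of the 21 were higher and 0 lower, beside 7.92% and 7.3% of all genes. Its signals were 2269.5, 2264.7 and 3235.9 in Z-on and 1421.5, 956.9 and 1244.8 in Z-off, against 1425.5, 1934.7 and 2127.7 in M-on and 2534.6, 2184.9 and 2210.3 in M-off. The Z-off arrays were the lowest of all, just below M-on array 1, and the Z change of 1.09 was called while the M change of -0.35 was not (adjusted p = 0.173). The difference was 1.44 (SE 0.29, adjusted p = 0.0454), and it was 1.20 and no longer called (adjusted p = 0.0579) with M-on array 3 alone. Serp1, a protein that attends the ER translocon under stress, had signals of 1141.3, 1299.0 and 1397.0 in Z-on and 1482.4, 1428.5 and 1310.7 in Z-off, against 888.4, 541.5 and 562.2 in M-on and 1697.7, 1919.4 and 1686.5 in M-off. Its difference was 1.29 (SE 0.24, adjusted p = 0.0417), with M-on the only low group.

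**Figure D5:**
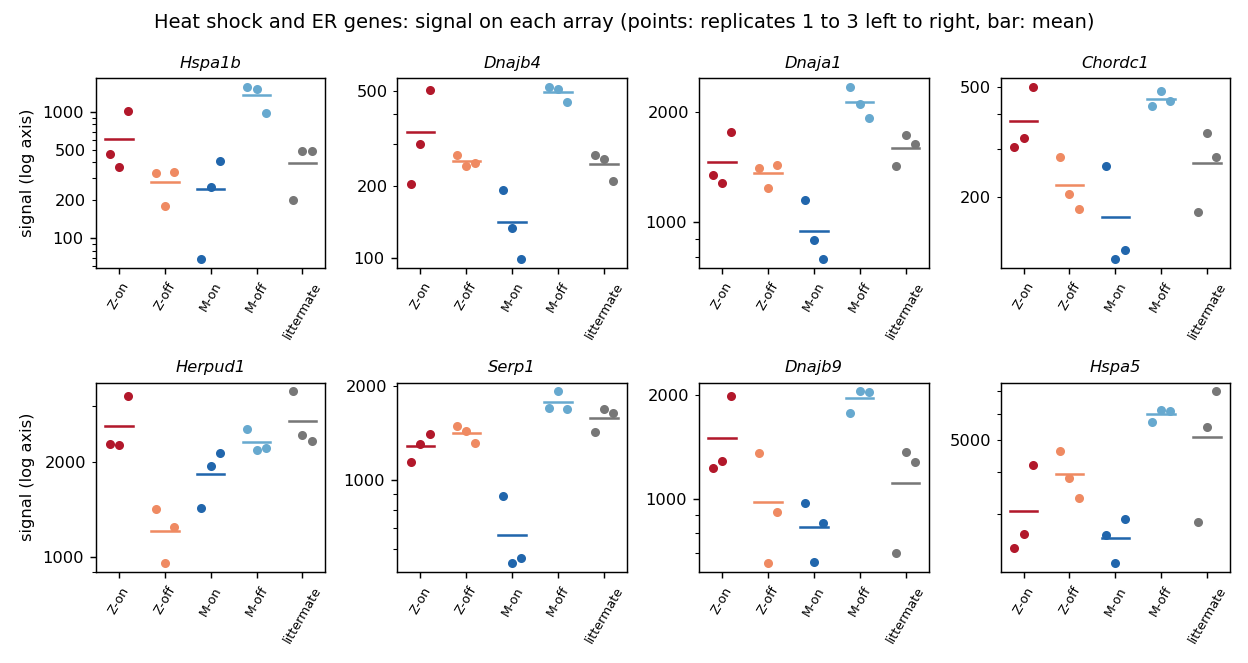
Signals of 4 called heat shock genes and of Herpud1, Serp1, Dnajb9 and Hspa5 are plotted on log axes for every array of the Z-on, Z-off, M-on, M-off and littermate groups, with bars at the group means. Except for Herpud1, the M-off mean is the highest and the M-on mean the lowest of the 5 groups, and for Herpud1 the Z-off mean is the lowest.

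Of 31 measured genes of ER translocation and vesicle transport, 0 were called in limma with all arrays (11 higher and 0 lower at an unadjusted p under 0.05, beside 7.92% and 7.3% of all genes), and 4 were called higher with M-on array 3 alone, beside 5.37% of all genes. The unfolded protein response and integrated stress response had 0 of 23 genes called higher and 1 lower, the receptor Vldlr described above. Proteasome subunits had 0 of 33 called, with a median of -0.22. At an unadjusted p under 0.05 (limma), 1 was higher and 6 lower, beside 7.92% and 7.3% of all genes. Their median was -0.47 with M-on array 3 alone and -0.01 with M-on array 1 alone. Of 32 genes of autophagy and lysosomes 1 was called, Hexa, a subunit of the lysosomal hexosaminidase. At an unadjusted p under 0.05, 1 of the 32 was higher and 7 lower, beside the same shares of all genes. The list median was -0.08, or -0.14 with M-on array 3 alone. Hexa had signals of 155.9, 204.9 and 170.5 in Z-on and 283.2, 244.3 and 199.2 in Z-off, against 279.7, 445.1 and 340.9 in M-on and 187.5, 184.9 and 174.3 in M-off, with a difference of -1.30 (SE 0.24, adjusted p = 0.0417). Mouse Serpina1b and Serpina1c, the mouse counterparts of the transgene, had differences of -0.20 (adjusted p = 0.687) and 0.04 (adjusted p = 0.96). No probe set for the human transgene was used here.

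Genes of daily rhythm and of glucose use were called singly and higher in the Z line. Per2, a repressor of the circadian clock, had signals of 89.3, 67.6 and 124.9 in Z-on and 23.7, 7.7 and 44.0 in Z-off, against 69.0, 70.2 and 41.7 in M-on and 107.7, 95.4 and 89.0 in M-off. It rose in the Z line by 1.49 and was not called in the M line (-0.59, adjusted p = 0.0996). The difference was 2.08 (SE 0.40, adjusted p = 0.0425), and 2.46 (adjusted p = 0.0105) with M-on array 3 alone. A second, dimmer Per2 probe set, with at most 41.7 on any array of the Z and M lines, gave 0.79 and was not called. Of 24 clock and clock output genes it was the 1 called, with a list median of 0.61, or 0.95 with M-on array 3 alone. At an unadjusted p under 0.05 (limma, all arrays), 8 of the 24 were higher and 0 lower, beside 7.92% and 7.3% of all genes.

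Pfkfb3, whose product speeds glycolysis, had signals of 95, 32.4 and 136.6 in Z-on and 5.6, 4.0 and 25.4 in Z-off, against 16.6, 12.2 and 19.2 in M-on and 32.6, 49.8 and 25.8 in M-off. The Z-on arrays were scattered but above every Z-off and M-on array. The difference was 2.52 (SE 0.50, adjusted p = 0.0454), and with M-on array 3 alone it was 2.38 and no longer called (adjusted p = 0.0528). Another Pfkfb3 probe set gave 0.58 and was not called, and its Z-on and M-on arrays overlapped. Pfkfb3 was the 1 gene called of 18 of gluconeogenesis and glycogen. Tsc22d3, a target of glucocorticoids, had signals of 618.4, 474.1 and 807.4 in Z-on and 333.5, 252.0 and 327.4 in Z-off, against 342.8, 364.9 and 210.0 in M-on and 499.6, 491.0 and 473.4 in M-off. It rose in the Z line and fell in the M line, with a difference of 1.68 (SE 0.33, adjusted p = 0.0425), and was chosen for mention after its values were seen.

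Rgs16, a brake on G protein signalling, rose in both lines. Its signals were 319.9, 246.6 and 265.7 in Z-on and 0.4, 5.7 and 32.4 in Z-off, against 18.7, 62.8 and 9.7 in M-on and 1.0, 5.0 and 2.8 in M-off. All Z-on arrays were above all M-on arrays, with a Z change of 3.50 and an M change of 1.13. The difference of 2.37 (SE 0.61) was not called (adjusted p = 0.0988), and it was 3.05 and called (adjusted p = 0.0141) with M-on array 3 alone.

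Several called genes encode signalling or membrane proteins, named here singly and not as a tested group. Nox4, an NADPH oxidase, had signals of 206.7, 245.5 and 362.8 in Z-on and 113.1, 117.0 and 267.5 in Z-off, against 38, 40.1 and 45.3 in M-on and 240.6, 237.5 and 163.5 in M-off. On this probe set the M-on arrays were far below all others and close to each other. The difference was 2.72 (SE 0.40, adjusted p = 0.0197) with 2.80, 2.74 and 2.61 for M-on arrays 1, 2 and 3. A second Nox4 probe set gave 2.00 and was not called, and there M-on array 3 (47.8) was above Z-off array 2 (45.7). Gna14, a G protein alpha subunit, had signals of 99.2, 132.5 and 123 in Z-on and 7.7, 14.3 and 79.6 in Z-off, against 54.1, 50.8 and 47.5 in M-on and 152.8, 133.5 and 91.6 in M-off. It rose in the Z line and fell in the M line, with a difference of 2.77 (SE 0.57, adjusted p = 0.0454) and a second probe set at 2.47. F2r, a thrombin receptor, had signals of 258.6, 375.3 and 178.7 in Z-on and 165.4, 193.0 and 278.9 in Z-off, against 99.0, 43.8 and 36.9 in M-on and 220.6, 248.5 and 225.6 in M-off. Its difference was 2.09 (SE 0.41, adjusted p = 0.0425), and 2.53 (adjusted p = 0.00253) with M-on array 3 alone. Cav2, a caveolin, had 1.89 (SE 0.35, adjusted p = 0.0417), with signals of 20.5, 3.2 and 2.3 in M-on and at least 19.4 on every array of the other transgenic groups. Another Cav2 probe set, with at most 51.8 on any array of the Z and M lines, gave -0.09.

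Among genes of RNA splicing, Luc7l3 was called. Luc7l3, a splicing factor, had signals of 162.0, 180.4 and 195.3 in Z-on and 289.9, 219.9 and 273.2 in Z-off, against 76.8, 37.2 and 41.4 in M-on and 297.9, 323.5 and 343.4 in M-off. It fell in both lines, by 0.50 in the Z line and by 2.36 in the M line, and the groups were ordered M-on, Z-on, Z-off and M-off with no overlap between neighbours. The difference was 1.86 (SE 0.27, adjusted p = 0.0197), and 2.05 with M-on array 3 alone. Another, dimmer Luc7l3 probe set gave 0.87 and was not called. There M-on array 1 (49.9) lay within the range of the Z-on arrays (31.7 to 57.4). Luc7l3 was the 1 called of 29 splicing genes, and the list median was 0.75. The list had 0 genes called higher and 9 lower on the Z on-off change, beside 31.6% and 7.46% of all genes. On the M on-off change it had 0 higher and 23 lower, beside 37.9% and 12.4%. For the difference, 15 of the 29 were higher and 0 lower at an unadjusted p under 0.05 (limma, all arrays), beside 7.92% and 7.3% of all genes. The list median was 1.06 with M-on array 3 alone and 0.09 with M-on array 1 alone. The values for this list thus turned on which M-on array was used. Zfp445, a zinc finger protein, rose in the Z line and fell in the M line, with signals of 278.7, 298.2 and 398.0 in Z-on and 120.0, 101.7 and 116.0 in Z-off, against 192.7, 66.2 and 76.5 in M-on and 187.8, 185.5 and 160.2 in M-off. Its difference was 2.12 (SE 0.38, adjusted p = 0.0408), and a second probe set gave 2.16 and was called.

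Further called genes had differences between 1.06 and 2.19 in size. Klhl7, an adaptor of a ubiquitin ligase, had signals of 132.8, 138.0 and 126.9 in Z-on and 80.6, 101.6 and 107.0 in Z-off, against 79.0, 57.0 and 75.9 in M-on and 140.5, 149.3 and 139.4 in M-off. It rose in the Z line and fell in the M line, and its difference of 1.30 (SE 0.19, adjusted p = 0.0197) was called in 9 of the 12 fits with 1 array left out. A second, dimmer Klhl7 probe set gave 0.89 and was not called. Scarb2, a lysosomal membrane protein, and Blzf1, a Golgi protein, also rose in the Z line and fell in the M line, with differences of 1.17 each, or 0.96 and 1.34 with M-on array 3 alone. A second Scarb2 probe set, whose highest signal was on M-on array 3 (811.9), gave 0.36 and was not called. A second, dimmer Blzf1 probe set gave 1.17 and was not called either. Saa4, a serum amyloid, rose in the Z line and fell in the M line, at 1.06, or 1.03 with M-on array 3 alone. It was the 1 called of 24 acute phase genes. Fam117a had signals of 31.4, 25 and 28 in Z-on and 39.1, 38.8 and 45.5 in Z-off, against 50.7, 66.3 and 59.5 in M-on and 26.1, 20.2 and 32.1 in M-off, and a difference of -1.21 (SE 0.19, adjusted p = 0.0237). Gadd45gip1, a protein of mitochondrial ribosomes, had -1.70 (SE 0.30, adjusted p = 0.0408), and -2.04 (adjusted p = 0.00204) with M-on array 3 alone. Another, dim probe set, with at most 35.9 on any array of the Z and M lines, gave 0.73. Rhbdf1, an inactive rhomboid protein, had signals of 113.3, 108.7 and 206.0 in Z-on and 66.8, 166.0 and 125.7 in Z-off, against 267.1, 335.7 and 315.9 in M-on and 52.1, 41.2 and 37.2 in M-off, and a difference of -2.19 (SE 0.42, adjusted p = 0.0422), or -2.24 (adjusted p = 0.0277) with M-on array 3 alone.

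Markers of other liver cells were read as lists. Of 16 Kupffer cell and macrophage markers 0 were called in limma, but 15 were below 0, with 12 lower and 0 higher at an unadjusted p under 0.05, beside 7.3% and 7.92% of all genes, and a median of -0.66. The median was -0.65 with M-on array 3 alone, with 0 called. Their summed signal was 1867 to 2438 in Z-on against 1915 to 3250 in Z-off, and 3652 to 4406 in M-on against 2454 to 2609 in M-off. Csf1r, the receptor for macrophage growth factor, had signals of 276.6, 348.0 and 419.4 in Z-on and 574.5, 389.3 and 504.0 in Z-off, against 778.7, 866.1 and 702.6 in M-on and 486.9, 482.9 and 411.1 in M-off, with a difference of -1.22 (adjusted p = 0.071). In whole liver, fewer cells of a type and less RNA per cell cannot be told apart. Called genes that macrophages are known to express, Lst1 and the chemokine Ccl9, had differences of -1.28 and -1.08. The part of macrophage content in these values was not tested. Markers of sinusoidal endothelium (14 genes, median -0.28), stellate cells (21, -0.01), lymphocytes and neutrophils (21, -0.21), bile ducts (11, -0.21) and erythroid cells (6, -0.20) had 0 calls each, as had exocrine pancreas and adipose markers (17, -1.18). At an unadjusted p under 0.05 these 6 lists had 5 genes higher and 7 lower in all.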

How the data were processed

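Affymetrix mouse arrays measured liver RNA of 15 mice, each on its own array, after TRIZOL extraction, RNeasy cleaning and biotin labelling, per the labels' protocols. The authors deposited linear intensity values for probe sets. The submitters' processing notes name RMA, with no version and no other tool. The deposited intensities were not in log2 units, and their mean after trimming 2% at each end was 150.06 to 150.08 on every array. How they were scaled, and the array's genome build, are not given in the sources used here. Coordinates are printed only for RefSeq promoter windows of GRCm38.p6.

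Of 22690 probe sets, 20380 had 1 gene, 691 several and 1555 none by the platform's table, and 64 were array controls. For each of 12393 genes the probe set with 1 gene and the highest mean was used, the constant 16 was added and log2 taken. limma 3.58.1 in R 4.3.3 was fitted to all 15 arrays with 1 mean per group (10 residual and 3.89 prior degrees of freedom). The contrast was Z-on minus Z-off, less M-on minus M-off, two-sided, with Benjamini-Hochberg adjustment over all genes and calls under 0.05. The number of arrays, 3 per group, limits the precision. Summed signals of a list are sums of linear intensities over its measured genes. The procedure was tested on simulated data.

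The members, the 39 gene lists and the tests were chosen with earlier results of these data known. Named genes were the 12 largest called changes of each direction, and up to 8 more of each direction with the smallest adjusted p that were also called without M-on arrays 1 and 2. To these came up to 4 called members of each list, or, for a list with no call, the 2 of smallest p, and Rgs16, Hspa5, Dnajb9, Xbp1, Ddit3, mouse Serpina1 genes, Xist and Eif2s3y. Genes named outside this rule, chosen after their values were seen, were Pmvk, Tm7sf2, Ebp, Hspa1a, Serp1, Btg1, Cirbp, Lst1, Ccl9 and those marked as such. Alternatives were constants of 1 and 64, quantile normalization, no dim genes, all probe sets, 12 arrays only, array weights, a spread fitted robustly along intensity, a replicate block, and arrays left out. Leaving out M-on arrays 1 and 3, and quantile normalization without M-on arrays 1 and 2, were chosen after seeing the data. Figures were drawn with matplotlib 3.10.9.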

Additional observations from a re-analysis of the deposited data

Results flagged for a closer look

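For each gene below, the on-off change of the Z line differed from that of the M line by the test of the difference itself (limma, adjusted p under 0.05). Values are Z-line change minus M-line change on the log2 scale.

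Sterol enzymes were lower, with -3.02 for Mvk, -2.77 for Sqle, -2.47 for Cyp51, -2.27 for Fdps, -2.08 for Dhcr7 and -1.77 for Fdft1. Lower genes outside that list were Cyp2c39 at -6.20, Cyp2c38 at -3.53, Vldlr at -3.48, Rdh11 at -2.30, Hsd17b6 at -2.12 and Acaa2 at -1.57. The remaining lower genes were Rhbdf1 at -2.19, Gadd45gip1 at -1.70, Cwf19l1 at -1.48, Rab3il1 at -1.43, Hexa at -1.30, Fam117a at -1.21, Mmp24 at -1.14 and Rhox9 at -1.06.

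Heat shock genes were higher, with 3.66 for Hspa1b, 2.13 for Chordc1, 2.04 for Dnajb4 and 1.26 for Dnaja1. Herpud1, the single ER-associated degradation gene called, had 1.44. Single genes of other kinds were higher, with 2.77 for Gna14, 2.74 for Susd4, 2.72 for Nox4, 2.09 for F2r and 1.89 for Cav2. Pfkfb3 had 2.52 and Per2 2.08. Further higher genes were Yae1d1 at 2.13, Zfp445 at 2.12, Luc7l3 at 1.86, Actr6 at 1.65 and Rrs1 at 1.43. Cyp2c50 had 1.64, Klhl7 1.30, Scarb2 and Blzf1 1.17 each, and Saa4 1.06. Eif2s3y, at 2.61, is the Y-linked gene on which the arrays labelled M-on 1 and 2 went against their label.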

How the results depend on the processing

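With all arrays 38 genes were called higher and 38 lower, and none of the 76 changed sign under any alternative run. Xist, which was not called, did so without M-on arrays 1 and 2 (0.62). The counts of higher and lower genes were 7 and 16 with a constant of 1, and 66 and 69 with a constant of 64. They were 36 and 33 after quantile normalization, 59 and 54 without dim genes, 34 and 33 over all probe sets, 5 and 13 with only the 12 arrays of the Z and M lines, 51 and 41 with an intensity trend and robust spread, and 755 and 402 with array weights, where M-on array 1 had the lowest weight (0.292). Without M-on arrays 1 and 2 the counts were 665 and 146, without M-on arrays 2 and 3 they were 18 and 32, without M-on arrays 1 and 3 they were 630 and 189, and after quantile normalization without M-on arrays 1 and 2 they were 610 and 212. Leaving out each of the 12 arrays in turn gave 0 to 786 genes higher and 2 to 244 lower, with the highest counts without M-on array 1. The fits with fewer arrays also have fewer degrees of freedom, and otherwise the cause was not tested.

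Of the 76 genes, 62 were called after quantile normalization, 70 with a constant of 64, 19 with a constant of 1, 69 without dim genes, 17 with the 12 arrays only and 76 with array weights. Over 25 alternative settings Cyp51 was called in 25, Mvk in 24, Luc7l3 and Rdh11 in 23, Klhl7 and Nox4 in 22, Sqle in 21 and Fdft1 in 20. With the replicate number as a block, 4 genes were called higher and 7 lower, 10 of them among the 76. Deviations of arrays that share a number correlated between -0.173 and 0.0376 in pairs of the 4 groups, so the numbers did not pair the arrays. Signals near 0 depend on the constant, and no detection calls were used here.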

Other observations

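Some genes were not called with all arrays but had large differences and were called with M-on array 3 alone. Apob, the main protein of very low density lipoproteins, had signals of 2342.6, 1808.1 and 2850.1 in Z-on and 7105.5, 4173.8 and 5387.6 in Z-off, against 1622.3, 571.8 and 482.2 in M-on and 6681.6, 6520.9 and 5401.8 in M-off. It fell in both lines, and the difference was 1.75 (adjusted p = 0.135, limma), or 2.40 (adjusted p = 0.00304) with M-on array 3 alone. Ghr, the growth hormone receptor, had signals of 3005.6, 2720.0 and 3373.8 in Z-on and 2823.1, 2870.3 and 3291.6 in Z-off, against 2670.9, 458.9 and 721.5 in M-on and 3424.1, 3406.7 and 3287.1 in M-off. On this probe set M-on array 1 was near the other groups and M-on arrays 2 and 3 were far below them. The difference was 1.81 (adjusted p = 0.181), and 2.22 with array 3 alone. Another Ghr probe set showed no such drop, with 1547.9, 1361.9 and 1781.0 in M-on against 1720.3, 1538.0 and 1631.5 in Z-on, and gave 0.38. A further, dimmer probe set gave 1.37, and neither was called. Elovl6, a fatty acid elongase, had signals of 510.3, 183.4 and 117.7 in M-on, with array 1 the highest, and a difference of 1.91 (adjusted p = 0.151), or 2.76 with array 3 alone.

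Other genes had large differences and were not called with all arrays. Abcc2, the pump that exports conjugates into bile, had signals of 606.3, 478.5 and 393.0 in Z-on and 263.7, 296.8 and 124.8 in Z-off, against 202.4, 275.4 and 210.0 in M-on and 307.9, 346.8 and 344.4 in M-off. All Z-on arrays were above all arrays of the other 3 groups, and the difference of 1.64 missed the threshold (adjusted p = 0.0543) with all arrays, and was 1.74 (adjusted p = 0.0369) with M-on array 3 alone. Egr1, an immediate early gene, had signals of 583.4, 1022.3 and 163.3 in Z-off and 29.1, 879.4 and 285.7 in littermates, so that arrays of 1 group differed widely, and its difference was -3.55 (adjusted p = 0.167). Serpina12 likewise had 50.3, 48.7 and 1050.5 in Z-off, with a difference of 3.18 (adjusted p = 0.299).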
